A study of Mus musculus with 20 samples.

Results

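The antiviral arm of the type I interferon response was followed through 42 interferon stimulated genes in macrophages and monocytes sorted from MC38 tumours, which grow from a transplantable mouse colon carcinoma line. The members were taken by gene name, as a list drawn up with earlier results of these data known. All 42 were found among the 36528 gene models of the files, and all 42 were among the 15390 genes with enough reads to be tested. The groups were macrophages from tumours of mice given an antibody to PD-L1 (anti-PD-L1), macrophages from control tumours, monocytes from anti-PD-L1 tumours and monocytes from control tumours, with 5 RNA-seq libraries each. RNA of every group was taken on day 7 after treatment began, and all groups share the tumour line. The sources used here give no strain, sex or age of the mice, no antibody dose, no control treatment and no gates for the sort. Whether the 5 libraries of a group stem from different mice is not stated in the labels, and the p-values therefore measure the spread among the samples at hand, which may be technical. All control libraries carry lower sample numbers than all anti-PD-L1 libraries, so treatment and an effect that follows this order cannot be told apart.

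PD-L1 on tumour and myeloid cells binds the inhibitory receptor PD-1 of T cells, and antibodies to it release that brake. Type I interferons bind the receptor IFNAR, whose kinases JAK1 and TYK2 activate STAT2. With IRF9 it takes part in a complex that binds the interferon stimulated response element in the promoters of antiviral genes. The products sense foreign nucleic acid, degrade or sequester viral RNA, tag proteins with the ubiquitin-like modifier ISG15 or block virus entry and release. Interferon-gamma, made by T cells and NK cells, acts through another receptor and raises many of the same genes, so their level alone does not name the interferon. In tumours, type I interferon acting on myeloid cells is known for its role in priming T cells.

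The response element is a known feature of promoters of antiviral genes, so it was searched for in those of the members. The promoters printed below are examples, picked mostly from members with a match. They do not stand for the share of members that hold one. The letters searched were GAAA followed, after any 2 bases, by GAAA on either strand, in windows from 250 bases before to 50 after each RefSeq start (GRCm38.p6). Of the 31 members with a promoter in the RefSeq table, 15 (48.4%) held a match, against 1079 of 27025 genes (3.99%). A longer form, in which CT follows the second GAAA and which contains the shorter motif, was found in 10 members (32.3%), against 0.30% of genes. The 250 bases before the start are given 5′ to 3′ on the gene's strand with matches in capitals, and a pair of TTTC blocks is the same motif on the opposite strand. Ifit1 (chr19:34640639-34640888, plus strand) held a pair of separate matches, Isg15 (chr4:156200819-156201068, minus strand) 3 that overlap and Bst2 (chr8:71537473-71537722, minus strand) 2 that overlap. Oas1a (chr5:120907526-120907775, minus strand) and its neighbour Oas1g (chr5:120887614-120887863, minus strand) held the same overlapping matches, which end 4 and 2 bases before their starts. Ifi44 (chr3:151749911-151750160, minus strand), the member with the largest treatment effect, held no exact match in this window, and close variants of the letters were not searched.
Ifit1: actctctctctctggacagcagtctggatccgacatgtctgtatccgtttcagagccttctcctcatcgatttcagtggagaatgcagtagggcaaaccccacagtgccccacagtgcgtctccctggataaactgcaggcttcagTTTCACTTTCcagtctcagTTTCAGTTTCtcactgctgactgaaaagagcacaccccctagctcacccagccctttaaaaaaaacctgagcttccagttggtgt
Isg15: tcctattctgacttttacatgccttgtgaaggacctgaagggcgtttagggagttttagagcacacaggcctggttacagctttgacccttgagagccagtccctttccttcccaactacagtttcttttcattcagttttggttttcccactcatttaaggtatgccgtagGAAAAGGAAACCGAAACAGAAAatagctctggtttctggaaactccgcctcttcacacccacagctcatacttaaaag
Oas1a: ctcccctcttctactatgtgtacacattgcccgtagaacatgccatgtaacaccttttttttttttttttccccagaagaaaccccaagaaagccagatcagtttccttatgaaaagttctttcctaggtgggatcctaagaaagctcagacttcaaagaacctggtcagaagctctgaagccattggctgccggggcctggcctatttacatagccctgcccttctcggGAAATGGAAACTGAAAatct
Oas1g: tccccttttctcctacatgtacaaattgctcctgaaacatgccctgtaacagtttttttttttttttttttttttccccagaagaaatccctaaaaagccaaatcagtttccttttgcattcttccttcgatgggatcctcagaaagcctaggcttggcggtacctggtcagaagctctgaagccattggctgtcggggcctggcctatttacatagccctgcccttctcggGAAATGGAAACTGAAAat
Bst2: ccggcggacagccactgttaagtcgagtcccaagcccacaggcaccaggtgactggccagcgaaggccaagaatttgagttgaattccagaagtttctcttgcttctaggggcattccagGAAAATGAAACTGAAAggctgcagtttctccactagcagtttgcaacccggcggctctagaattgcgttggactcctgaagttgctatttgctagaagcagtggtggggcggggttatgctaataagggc
Ifi44: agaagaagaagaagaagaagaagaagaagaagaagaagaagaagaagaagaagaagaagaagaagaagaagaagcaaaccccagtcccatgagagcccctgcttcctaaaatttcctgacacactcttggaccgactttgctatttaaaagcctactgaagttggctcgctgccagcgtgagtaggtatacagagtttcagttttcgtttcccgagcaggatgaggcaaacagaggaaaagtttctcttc

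Libraries held 30191509 to 36514133 counts, and the lowest count of any member in any library was 428, so depth did not limit these genes. Marker genes matched the labels of the sort. Of 12 macrophage markers 9 were higher, and of 10 monocyte markers 10 were lower, in macrophages than in monocytes of anti-PD-L1 tumours, and 9 and 9 in control tumours. Of all genes tested 28.2% were higher and 25.7% lower in anti-PD-L1 tumours, and 24% and 20% in control tumours. Fibroblast marker RNA moved with treatment. Of all genes tested 2.92% were lower after anti-PD-L1 in macrophages and 15.4% in monocytes. Of 19 fibroblast markers, 11 were lower in anti-PD-L1 than in control macrophages and 12 in anti-PD-L1 than in control monocytes. Their summed level was 66.6 to 474 CPM in anti-PD-L1 macrophages against 124 to 2840.0 CPM in control macrophages, and 86.0 to 704 CPM in anti-PD-L1 monocytes against 430.3 to 4433 CPM in control monocytes, with no marker at 0 in every library. CPM here are read counts scaled to library size with TMM factors. In sorted bulk samples, fewer cells of a type and less RNA per cell cannot be told apart.

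As a set, the members were highest in monocytes of anti-PD-L1 tumours. The mean log2 CPM over the 42 genes was 7.42, 7.38, 7.04, 7.17 and 6.97 in the 5 anti-PD-L1 macrophage libraries, against 6.71, 6.67, 6.95, 7.14 and 6.61 in control macrophages. In monocytes it was 7.90, 8.16, 8.08, 8.05 and 7.73 after anti-PD-L1, against 7.31, 7.43, 7.06, 7.16 and 7.83 in controls. In each cell type 1 control library, macrophage replicate 4 and monocyte replicate 5, lay within the range of the anti-PD-L1 libraries, and the other 4 controls lay below all of them. These are neighbours in sample number, and the monocyte library was the highest control for 38 of the 42 members, the macrophage library for 25. They also had the lowest fibroblast marker level among their controls, 1.35 log2 CPM in macrophage replicate 4 and 2.87 in monocyte replicate 5, against up to 5.21 and 5.76 in the others. The part of fibroblast RNA in these levels was not tested. At the other end, anti-PD-L1 monocyte replicate 5 was the lowest of its group for 30 members and its neighbour, anti-PD-L1 macrophage replicate 5, for 26. The 42 genes took 0.855 ± 0.104% of counts in anti-PD-L1 macrophages and 0.712 ± 0.086% in control macrophages, and 1.30 ± 0.13% in anti-PD-L1 monocytes and 0.982 ± 0.129% in control monocytes (SD, n = 5 each).

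**Figure D1:**
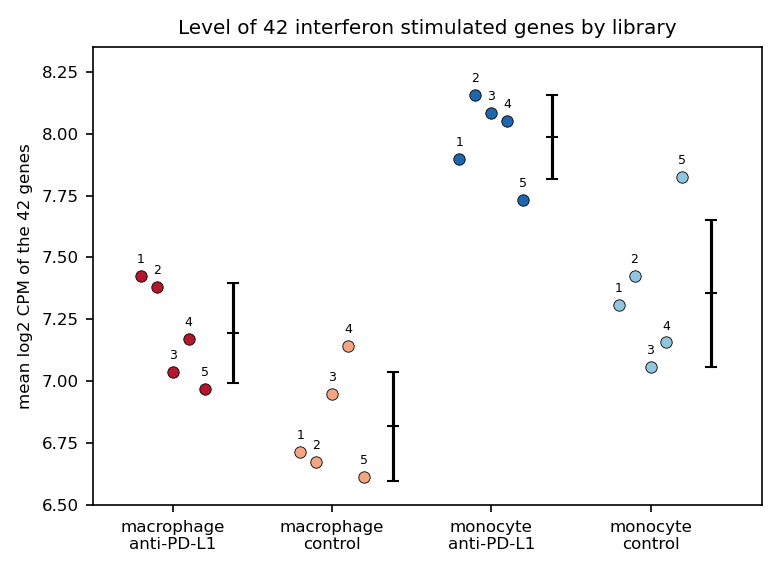
Mean log2 CPM of the 42 genes (y axis) in each library, with replicate numbers beside the points and bars for the mean ± SD of each group of 5. Anti-PD-L1 monocytes lie between 7.73 and 8.16, and control monocyte replicate 5 at 7.83 reaches into that range.

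**Figure D2:**
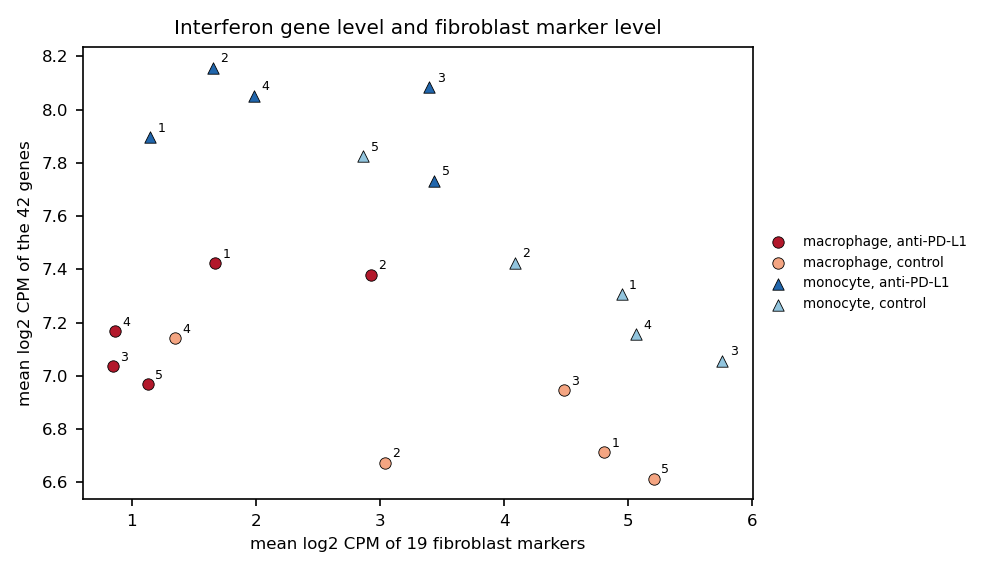
Mean log2 CPM of the 42 genes (y axis) against mean log2 CPM of 19 fibroblast markers (x axis) in each library, with replicate numbers. Among controls, macrophage replicate 4 (fibroblast level 1.35) and monocyte replicate 5 (2.87) lie farthest left and highest in their group, and 7 of the 10 control libraries lie right of all anti-PD-L1 libraries.

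In monocytes, most of the antiviral genes were higher after anti-PD-L1. Of the 42 members 34 rose (81%) and 0 fell, by edgeR's quasi-likelihood test with a Benjamini-Hochberg adjusted p under 0.05, where 9.92% of all genes tested rose and 15.4% fell. All 42 log2 fold changes were above 0, as were 52% of those of all genes. Their median was 0.61, against 0.02 for all genes, and they ran from 0.36 for Bst2 to 1.16 for Ifi44. For 12 members (28.6%), against 5.09% of all genes, every anti-PD-L1 library lay above every control library, and for 0, against 2.13%, every one of them lay below. The 12 were Epsti1, Herc6, Ifi35, Ifi44, Lgals3bp, Oas1a, Oasl2, Parp9, Phf11b, Rtp4, Trim30a and Zbp1. The 8 members that did not pass were Oas2, Ifit3b, Mx1, Mx2, Rsad2, Cmpk2, Ifitm3 and Ifi27l2a, with log2 fold changes of 0.41 to 0.62. With the replicate block Ifi27l2a also passed (adjusted p = 0.0497). Of the 34, 22 passed in each of the 20 fits that left out 1 library. With the mean fibroblast marker level as a covariate, or without the 6 control libraries highest in it, 1 member passed, Ifi44, where 0.0325% and 0.433% of all genes still rose, while all 42 log2 fold changes stayed above 0 with medians of 0.41 and 0.33. The fibroblast level was 1.15 to 3.44 log2 CPM in anti-PD-L1 and 2.87 to 5.76 in control monocytes. The covariate thus shares variation with treatment, and calls lost under it also reflect a less certain estimate.

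In macrophages the members lay on the same side of 0 with smaller values. Zbp1, Ifi44 and Parp9 rose, which is 3 of 42 (7.14%), and 0 fell, where 1.73% of all genes tested rose and 2.92% fell. All 42 log2 fold changes were above 0 (48.3% of all genes), with a median of 0.36 against -0.01 for all genes and a range of 0.00 for Samd9l to 0.66 for Ifi44. At an unadjusted p under 0.05 there were 22 members, where 23.5% of all genes were. Under the fibroblast covariate 3 of 42 members were left, where 964 of 15390 genes were. After those 6 control libraries were dropped 12 of 42 members were left, where 1772 of 15480 genes were. DESeq2 called 12 members higher, where it called 3.74% of all genes. No member had every anti-PD-L1 library above every control library, where 4.11% of all genes did, or below it, where 2.83% did. With neighbouring sample numbers as a replicate block, Parp9 (adjusted p = 0.041), Usp18 (0.041) and Dhx58 (0.050) passed, and Zbp1 (0.058) and Ifi44 (0.078) did not. Over the 20 fits that left out 1 library Zbp1 passed in 10, Ifi44 in 7 and Parp9 in 15. Over the 8 other alternatives they passed in 3, 2 and 5. The count of 3 moved with single libraries. Leaving out control macrophage replicate 4 gave 18 members and control monocyte replicate 5 gave 14, and the count was 9 without control monocyte replicate 4, 8 without control monocyte replicate 3 or anti-PD-L1 monocyte replicate 3, and 6 without control macrophage replicate 2. It was 1 without anti-PD-L1 macrophage replicate 2 or 3, anti-PD-L1 monocyte replicate 1 or 5 or control monocyte replicate 2. It was 0 without anti-PD-L1 macrophage replicate 1 or 4, control macrophage replicate 1 or 5 or control monocyte replicate 1. The number of all genes called higher moved as well. It was 266 with all libraries, 833 (5.34%) without control macrophage replicate 4 and 522 (3.35%) without control monocyte replicate 5, and was 11 to 43 in the 5 fits that called no member. The share was 3.86% without control monocyte replicate 4, 2.26% without control monocyte replicate 3 and 3.34% without anti-PD-L1 monocyte replicate 3. Without control macrophage replicate 2 it was 4%, and in the listed fits that called 1 member it was 0.648% to 2.15%. Both fibroblast settings, the covariate and the fit without the 6 control libraries, gave 0 as well, where 0.0065% and 0.413% of all genes were called higher, with 38 and 39 of the 42 log2 fold changes above 0 and medians of 0.20 and 0.25.

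**Figure D3:**
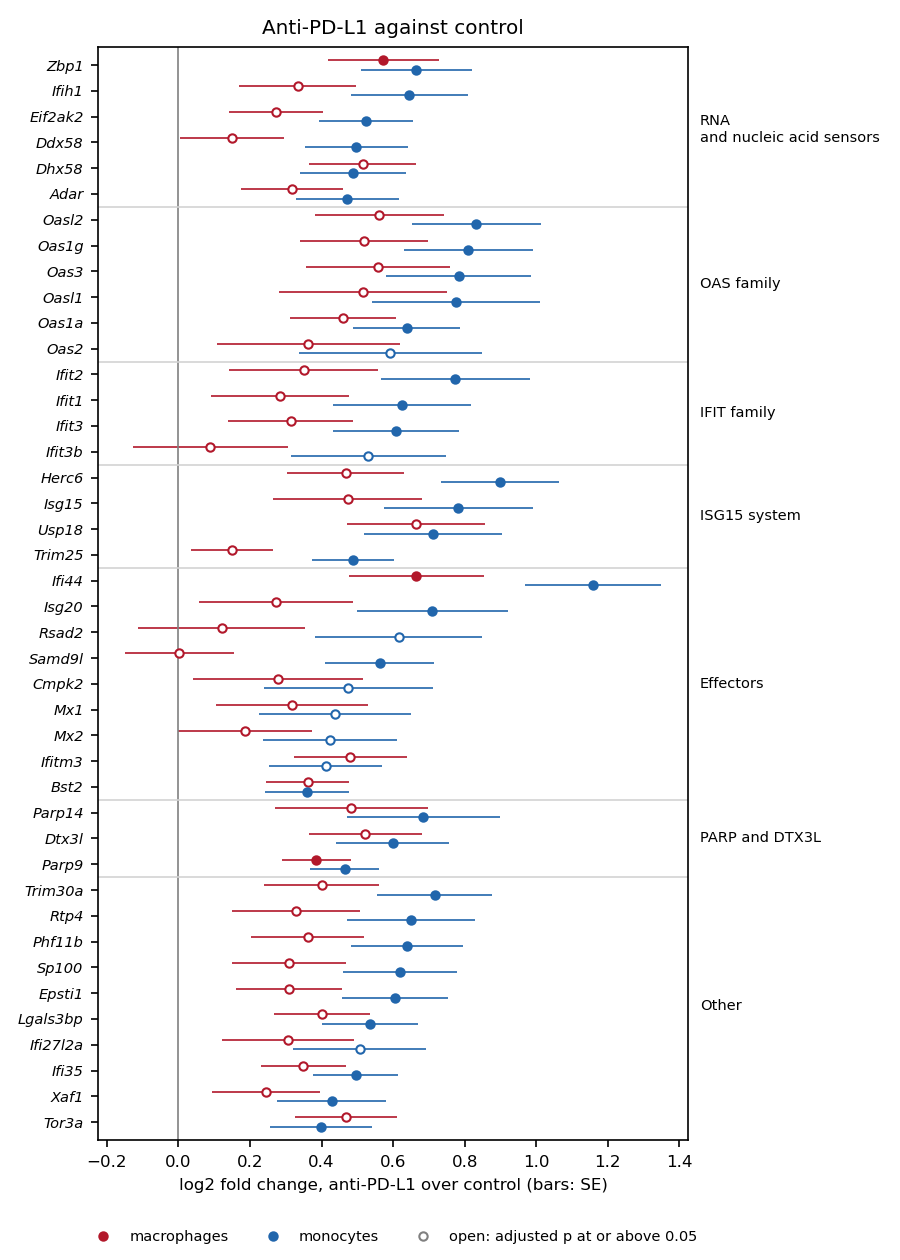
Log2 fold change of anti-PD-L1 over control (x axis, bars for SE) of each of the 42 genes by role, in macrophages (red) and monocytes (blue), with filled points for an adjusted p under 0.05. All points lie above 0, 34 monocyte points and 3 macrophage points are filled, and Ifi44 in monocytes is farthest out at 1.16.

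The larger effect in monocytes was not past the test of the difference itself. The treatment effect in macrophages minus that in monocytes had a median of -0.26 over the members, against -0.02 over all genes, and was above 0 for 4 of 42, against 46.6% of all genes. None of the 42 and none of the 15390 genes passed by edgeR's quasi-likelihood test, a background of 0%, and 1 member had an unadjusted p under 0.05, against 6.37% of all genes. DESeq2 called 0 members and 5 genes. With the replicate block 0 members and 8 genes passed, and 14 of 42 members had an unadjusted p under 0.05, against 2315 of 15390 genes. Without control monocyte replicate 5 these were 0 members and 41 genes, and 9 of 42 members against 1865 of 15595 genes. The member with the lowest value was Samd9l (-0.56, SE 0.22, adjusted p = 0.70). Bst2, Dhx58, Ifitm3 and Tor3a had values just above 0, from 0.00 to 0.07.

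All 6 sensors of nucleic acid rose in monocytes, with a median of 0.51, and 1 rose in macrophages, where the median was 0.33. Zbp1 (Entrez 58203, chromosome 2, 173206612 to 173218959) detects nucleic acid in the Z form and can trigger cell death. It was at 443, 472, 359, 442 and 316 CPM in the anti-PD-L1 macrophage libraries, against 288, 254, 329, 289 and 207 CPM in control macrophages (0.57, SE 0.15, adjusted p = 0.046). In monocytes it was at 776, 941, 790.3, 755 and 733 CPM after anti-PD-L1, against 498, 548, 371, 422 and 682 CPM in controls (0.66, SE 0.15, adjusted p = 0.0071). The monocyte groups did not overlap, while in macrophages 1 control, replicate 3, reached above the lowest anti-PD-L1 library, replicate 5. Eif2ak2 (Entrez 19106, chromosome 17, 78850504 to 78882572) encodes PKR, a kinase that stops translation when it binds double-stranded RNA. It was at 137, 128, 119, 111 and 108 CPM in anti-PD-L1 macrophages, against 79.8, 91.6, 106, 119 and 102 CPM in control macrophages (0.27, SE 0.13, adjusted p = 0.21), and did not pass. After anti-PD-L1 the monocyte libraries held 168, 186, 179, 179.6 and 132 CPM, against 107, 130.2, 108, 91.8 and 151 CPM in control monocytes (0.52, SE 0.13, adjusted p = 0.0096). Monocyte replicate 5 stood apart on each side, lowest of the anti-PD-L1 and highest of the control libraries, and these overlapped. The cytosolic RNA receptors Ddx58 (RIG-I), Ifih1 (MDA5) and Dhx58 (LGP2) rose in monocytes by 0.50, 0.65 and 0.49, and Adar, which edits adenosine in double-stranded RNA, by 0.47. Eif2ak2, Adar and Dhx58 are among 13 members that overlap a gene on the opposite strand in part, with Oas2, Oasl1, Usp18, Herc6, Parp9, Dtx3l, Rtp4, Trim30a, Ifi35 and Sp100. The sources used here give no strand setting for the counting, so reads from the overlapping stretches cannot be assigned for certain.

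Of the 6 OAS family genes 5 rose in monocytes, all but Oas2, with a median of 0.78, and 0 in macrophages, with a median of 0.52. The active enzymes of this family sense double-stranded RNA and make oligoadenylates that switch on the ribonuclease RNase L. Oasl2 (Entrez 23962, chromosome 5, 114896926 to 114912245) was at 422, 363, 331, 378 and 285 CPM in anti-PD-L1 macrophages, against 182, 205, 289.9, 309 and 219.6 CPM in control macrophages (0.56, SE 0.18, adjusted p = 0.065). It was at 688, 884, 729, 748 and 579 CPM in anti-PD-L1 monocytes, against 420.1, 448, 340.4, 271 and 559 CPM in control monocytes (0.83, SE 0.18, adjusted p = 0.0055), with no overlap in monocytes. In macrophages control replicates 3 and 4 lay above the lowest anti-PD-L1 library. Oas1g (Entrez 23960, chromosome 5, 120876142 to 120887613) was at 47.5, 48.8, 34.6, 37.5 and 36.4 CPM in anti-PD-L1 macrophages, against 31.7, 23.9, 25.8, 37.8 and 23.8 CPM in control macrophages (0.52, SE 0.18, adjusted p = 0.082). In anti-PD-L1 monocytes it was at 48.1, 56.4, 56.9, 55.3 and 65.0 CPM, against 29.3, 35.1, 22.1, 25.8 and 48.5 CPM in control monocytes (0.81, SE 0.18, adjusted p = 0.0059). Here anti-PD-L1 monocyte replicate 5 was the highest of its group, unlike for Oasl2, and control monocyte replicate 5 lay just above the lowest anti-PD-L1 library. Oas1a and Oas1g, whose promoters are shown above, lie side by side in a cluster with Oas2 and Oas3 on chromosome 5 (120730333 to 120907544). Of the 50-base windows of Oas1a 57.6% also occur in Oas1g, so their counts are uncertain. Oas1a, Oas3 and Oasl1 rose in monocytes by 0.64, 0.78 and 0.78.

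Of the 4 IFIT genes, of a family known for binding viral RNA that lacks host cap marks, Ifit1, Ifit2 and Ifit3 rose in monocytes and 0 rose in macrophages. The medians were 0.30 in macrophages and 0.62 in monocytes. Ifit2 (Entrez 15958, chromosome 19, 34550550 to 34576534) was at 338, 297, 219.7, 224 and 207 CPM in anti-PD-L1 macrophages, against 179.5, 162, 228, 277 and 162 CPM in control macrophages (0.35, SE 0.21, adjusted p = 0.33). Monocytes held 452, 550.2, 576, 575 and 322 CPM after anti-PD-L1, against 271, 274, 204, 267 and 432 CPM in controls (0.77, SE 0.21, adjusted p = 0.014). Control monocyte replicate 5 lay above anti-PD-L1 monocyte replicate 5, and no other monocyte libraries overlapped. Ifit3 (Entrez 15959, chromosome 19, 34583119 to 34588982) was at 159, 164, 107, 119.9 and 113 CPM in anti-PD-L1 macrophages, against 108, 94.8, 111, 140.5 and 77.8 CPM in control macrophages (0.31, SE 0.18, adjusted p = 0.30). Its monocyte values were 204, 249, 224, 238 and 159 CPM after anti-PD-L1, against 129, 129, 107, 145 and 194 CPM in controls (0.61, SE 0.18, adjusted p = 0.018), and again only control replicate 5 lay above anti-PD-L1 replicate 5. Ifit3b (Entrez 667370, chromosome 19, 34607530 to 34613403), the member with the lowest nRPKM over all 20 libraries, was at 28.6, 25.7, 16.8, 14.3 and 15.6 CPM in anti-PD-L1 macrophages, against 17.9, 16.5, 18.7, 27.3 and 14.7 CPM in control macrophages (0.09, SE 0.22, adjusted p = 0.85). It was at 33.6, 37.6, 32.1, 37.2 and 18.8 CPM in anti-PD-L1 monocytes, against 20.9, 18.2, 19.2, 27.3 and 24.7 CPM in control monocytes (0.53, SE 0.22, adjusted p = 0.079), and anti-PD-L1 replicate 5 lay below all but 1 control. Ifit3 and Ifit3b are near copies in a cluster of 4 on chromosome 19 (34550550 to 34650009) that share 51.2% of the 50-base windows of Ifit3, so reads could pass between them and both are uncertain.

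The 4 genes of the ISG15 system all rose in monocytes, with a median of 0.75, and 0 rose in macrophages, with a median of 0.47. Herc6 (Entrez 67138, chromosome 6, 57580992 to 57665136), the mouse ligase that attaches ISG15, was at 121, 120.3, 101, 108 and 85.0 CPM in anti-PD-L1 macrophages, against 68.3, 67.9, 93.7, 91.6 and 66.0 CPM in control macrophages (0.47, SE 0.16, adjusted p = 0.085). In anti-PD-L1 monocytes it was at 168, 220.2, 186, 179 and 135 CPM, against 104, 101, 79.3, 66.5 and 126 CPM in control monocytes (0.90, SE 0.16, adjusted p = 0.0036). No anti-PD-L1 monocyte library overlapped a control. It shares 23.8% of its 50-base windows with an overlapping gene model, which makes its level uncertain. Trim25 (Entrez 217069, chromosome 11, 88999403 to 89020294), a ubiquitin ligase that activates RIG-I, was at 232, 225, 191, 228 and 228 CPM in anti-PD-L1 macrophages, against 181, 172, 217, 212 and 214 CPM in control macrophages (0.15, SE 0.11, adjusted p = 0.47). Monocytes held 497, 597, 655, 546 and 532 CPM after anti-PD-L1, against 436, 407, 358, 312 and 502 CPM in controls (0.49, SE 0.12, adjusted p = 0.0073). Control monocyte replicate 5 lay just above the lowest anti-PD-L1 library, replicate 1. Isg15 itself averaged 233 ± 53.1 CPM in anti-PD-L1 and 168 ± 32.5 CPM in control macrophages, and 642 ± 113 CPM in anti-PD-L1 and 374 ± 136 CPM in control monocytes (SD, n = 5 each; 0.78, SE 0.21, adjusted p = 0.013 in monocytes). Usp18, which removes ISG15 and restrains the interferon receptor, rose by 0.71 in monocytes and had 0.66 in macrophages (adjusted p = 0.052).

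All 9 direct effectors had log2 fold changes above 0 in monocytes, and 4 of them rose by the test, Ifi44, Isg20, Samd9l and Bst2. Mx1, Mx2, Rsad2, Cmpk2 and Ifitm3 did not pass, with log2 fold changes of 0.41 to 0.62. Each of these is larger than the 0.36 of Bst2, and the members that passed were not compared by a test with those that did not. In macrophages Ifi44 rose, 1 of 9. Ifi44 (Entrez 99899, chromosome 3, 151730922 to 151749910), an interferon-induced cytoplasmic protein, was at 126, 116, 82.2, 91.5 and 74.2 CPM in anti-PD-L1 macrophages, against 55.5, 51.0, 85.6, 69.1 and 47.8 CPM in control macrophages (0.66, SE 0.19, adjusted p = 0.049). In monocytes it was at 44.7, 61.9, 63.3, 65.4 and 82.7 CPM after anti-PD-L1, against 38.7, 28.4, 24.6, 26.6 and 24.2 CPM in controls (1.16, SE 0.19, adjusted p = 0.0032). Control monocyte replicate 5, the highest control for 38 members, was the lowest for Ifi44, and the monocyte groups did not overlap, whereas control macrophage replicate 3 lay above the lower 2 anti-PD-L1 libraries. In monocytes Ifi44 passed in all 20 fits that left out 1 library and in all 8 other alternatives. Its macrophage call held in 7 of the 20 and 2 of the 8. Samd9l (Entrez 209086, chromosome 6, 3372257 to 3399571), which restricts poxviruses, was at 156, 147, 121, 119.7 and 104 CPM in anti-PD-L1 macrophages, against 158, 100.1, 142, 138 and 109 CPM in control macrophages (0.00, SE 0.15, adjusted p = 0.99). It was at 253, 287, 252, 273 and 206 CPM in anti-PD-L1 monocytes, against 159, 176, 142, 147 and 238 CPM in control monocytes (0.56, SE 0.15, adjusted p = 0.014). The macrophage groups covered about the same range, and in monocytes control replicate 5 lay within the anti-PD-L1 values. Bst2 (Entrez 69550, chromosome 8, 71534255 to 71537472), tetherin, which holds budding virus at the cell surface, was at 453, 575, 428, 525 and 477 CPM in anti-PD-L1 macrophages, against 330.2, 403, 355, 489 and 335 CPM in control macrophages (0.36, SE 0.12, adjusted p = 0.067). It was at 288, 390.1, 379, 324 and 352 CPM in anti-PD-L1 monocytes, against 285, 251, 240.1, 295 and 279 CPM in control monocytes (0.36, SE 0.12, adjusted p = 0.03), and 1 control, replicate 4, lay above the lowest anti-PD-L1 library. Bst2 passed in monocytes in 7 of the 20 fits that left out 1 library.

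Ifitm3 (Entrez 66141, chromosome 7, 141009590 to 141010744), which blocks virus fusion in endosomes, was the member with the highest mean nRPKM over all 20 libraries. It was at 734, 822, 664, 754 and 544 CPM in anti-PD-L1 macrophages, against 642, 449.8, 506, 542 and 382 CPM in control macrophages (0.48, SE 0.16, adjusted p = 0.07). In monocytes it was at 1394, 1509, 1529, 1349 and 1376 CPM after anti-PD-L1, against 974, 1192, 732, 1058 and 1426 CPM in controls (0.41, SE 0.16, adjusted p = 0.061), with control replicate 5 as high as the anti-PD-L1 libraries. Isg20 (Entrez 57444, chromosome 7, 78913396 to 78920396), an RNA exonuclease, was at 20.2, 24.6, 13.4, 17.0 and 15.3 CPM in anti-PD-L1 macrophages, against 18.6, 13.9, 11.9, 18.9 and 11.7 CPM in control macrophages (0.27, SE 0.22, adjusted p = 0.48). It was at 105, 137, 119, 106 and 88.5 CPM in anti-PD-L1 monocytes, against 53.3, 70.6, 45.3, 62.7 and 108 CPM in control monocytes (0.71, SE 0.21, adjusted p = 0.021). Every macrophage library was far below every monocyte library, and control monocyte replicate 5 again reached the anti-PD-L1 range. Rsad2 (viperin, which makes a chain-ending nucleotide) and Cmpk2, a nucleotide kinase, lie next to each other on chromosome 12 (26442743 to 26479837) and had 0.62 (adjusted p = 0.059) and 0.47 (adjusted p = 0.15) in monocytes. The dynamin-like GTPases Mx1 and Mx2 had 0.44 (adjusted p = 0.14) and 0.42 (adjusted p = 0.10).

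The 3 genes of the PARP and DTX3L group rose in monocytes, and Parp9 also in macrophages. Parp9 (Entrez 80285, chromosome 16, 35938470 to 35972621) and Dtx3l (Entrez 209200, chromosome 16, 35926515 to 35939027) encode partners in a ubiquitin ligase complex. Parp9 was at 246, 219, 194, 214 and 189 CPM in anti-PD-L1 macrophages, against 158, 148, 191, 170.2 and 146 CPM in control macrophages (0.39, SE 0.10, adjusted p = 0.04). Its monocyte values were 218, 236, 234, 236 and 193 CPM after anti-PD-L1, against 163, 161, 142, 157 and 188 CPM in controls (0.46, SE 0.10, adjusted p = 0.0048). The monocyte groups did not overlap, and in macrophages control replicate 3 alone lay above the lowest anti-PD-L1 library. Dtx3l was at 230.1, 183, 186, 195 and 149.6 CPM in anti-PD-L1 macrophages, against 109, 111, 159, 156 and 122 CPM in control macrophages (0.52, SE 0.16, adjusted p = 0.057). It was at 267, 298, 259.7, 294 and 193 CPM in anti-PD-L1 monocytes, against 164, 165, 134, 164 and 239.5 CPM in control monocytes (0.60, SE 0.16, adjusted p = 0.012), with control replicate 5 above the lowest anti-PD-L1 library. Both genes overlap on opposite strands, so part of their reads could be shared. Parp14, an ADP-ribosyltransferase of the same cluster, rose by 0.68 in monocytes and had 0.48 in macrophages (adjusted p = 0.18).

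Of the 10 remaining members 9 rose in monocytes, all but Ifi27l2a, and 0 in macrophages, with medians of 0.34 in macrophages and 0.57 in monocytes. Trim30a (Entrez 20128, chromosome 7, 104409025 to 104465193), a mouse TRIM protein known to restrain Toll-like receptor signalling, was at 331, 274, 260, 271 and 226 CPM in anti-PD-L1 macrophages, against 167, 194, 251, 234 and 187 CPM in control macrophages (0.40, SE 0.16, adjusted p = 0.13). In anti-PD-L1 monocytes it was at 511, 593, 547, 529.7 and 426 CPM, against 330.2, 369.5, 274, 201 and 413 CPM in control monocytes (0.72, SE 0.16, adjusted p = 0.0065). The monocyte groups were separate by a narrow gap between anti-PD-L1 replicate 5 and control replicate 5. Ifi35 (Entrez 70110, chromosome 11, 101448412 to 101458701), an interferon-induced leucine zipper protein, was at 104, 124, 89.7, 112 and 96.4 CPM in anti-PD-L1 macrophages, against 76.0, 89.7, 86.9, 91.9 and 68.5 CPM in control macrophages (0.35, SE 0.12, adjusted p = 0.08). It was at 162, 196, 168, 168 and 169 CPM in anti-PD-L1 monocytes, against 126, 131, 99.1, 101 and 155 CPM in control monocytes (0.50, SE 0.12, adjusted p = 0.0083), again without overlap. Rtp4, Phf11b, Sp100 (a nuclear body protein), Epsti1 and Lgals3bp (a secreted glycoprotein that binds galectins) rose in monocytes by 0.54 to 0.65. Xaf1, which favours cell death, and Tor3a, a torsin ATPase, rose by 0.43 and 0.40, and these calls held in 6 and 4 of the 20 fits that left out 1 library. Phf11b shares 47.0% of its 50-base windows with other Phf11 genes and is uncertain.

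**Figure D4:**
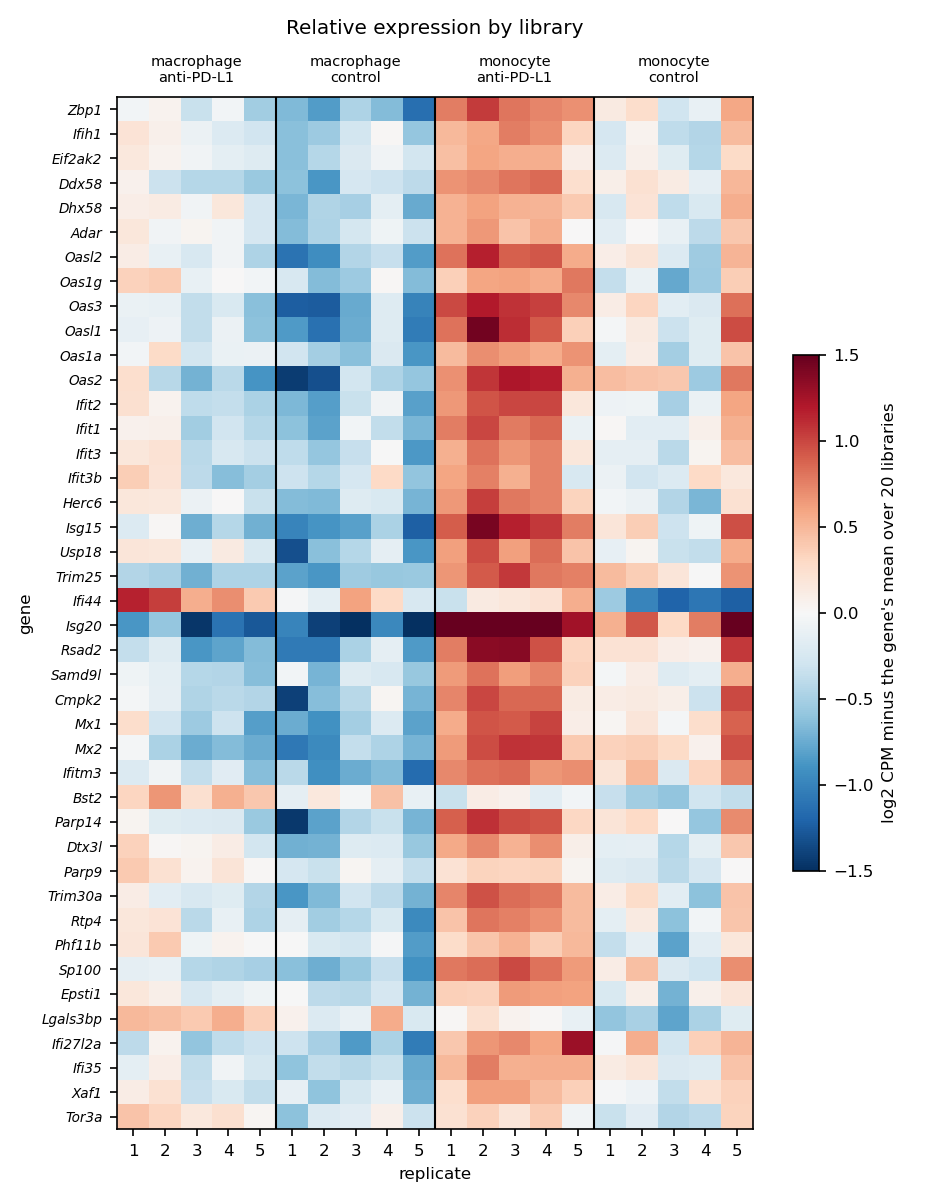
Log2 CPM of each gene minus its mean over the 20 libraries, by library (columns) and gene (rows), with colours capped at 1.5 on either side, which Isg20 exceeds. Anti-PD-L1 monocytes are above the mean for most genes, control monocyte replicate 5 resembles them, and Ifi44, Bst2 and Lgals3bp are higher in anti-PD-L1 macrophages than in either monocyte group.

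Between the sorted cells, most antiviral genes were lower in macrophages than in monocytes, with 3 exceptions. In anti-PD-L1 tumours 36 of 42 members (85.7%) were lower and 3 (7.14%) higher in macrophages by edgeR's quasi-likelihood test, where 25.7% of all genes were lower and 28.2% higher. In control tumours 27 (64.3%) were lower and 3 higher, where 20% of all genes were lower and 24% higher. Every macrophage library lay below every monocyte library for 27 members (64.3%) in anti-PD-L1 tumours and 12 (28.6%) in control tumours, against 22% and 10.8% of all genes. In each tumour group 4 of 42 log2 fold changes were above 0, against 49.3% of all genes in anti-PD-L1 and 49.6% in control tumours. The medians were -0.82 and -0.54, against -0.01 and 0.00 over all genes. The mean level of the 42 genes was lower in the macrophage than in the monocyte library in all 10 pairs of neighbouring sample numbers, by 0.36 to 0.99 on the log2 scale. Isg20 and Trim25 were the lower members with the smallest p. Isg20 averaged 18.1 ± 4.42 CPM in macrophages and 111 ± 17.9 CPM in monocytes of anti-PD-L1 tumours (-2.62, SE 0.22, adjusted p = 1.9e-08), and 15.0 ± 3.54 and 67.9 ± 24.3 CPM in macrophages and monocytes of control tumours (-2.18, SE 0.22, adjusted p = 2.4e-07). Trim25 averaged 221 ± 16.9 CPM in macrophages and 566 ± 61.6 CPM in monocytes of anti-PD-L1 tumours (-1.36, SE 0.12, adjusted p = 2.0e-08), and 199 ± 21.1 and 403 ± 72.6 CPM in macrophages and monocytes of control tumours (-1.02, SE 0.12, adjusted p = 9.7e-07). For both, the library values above do not overlap between the cell types.

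The 3 members higher in macrophages were Ifi44, Bst2 and Lgals3bp, in both tumour groups. Ifi44 averaged 98.0 ± 22.1 CPM in macrophages and 63.6 ± 13.5 CPM in monocytes of anti-PD-L1 tumours (0.62, SE 0.19, adjusted p = 0.0085), and 61.8 ± 15.6 and 28.5 ± 5.95 CPM in macrophages and monocytes of control tumours (1.12, SE 0.19, adjusted p = 9.4e-05). Bst2 averaged 492 ± 58.6 CPM in macrophages and 347 ± 41.5 CPM in monocytes of anti-PD-L1 tumours (0.50, SE 0.12, adjusted p = 0.0012), and 383 ± 66.2 and 270.2 ± 23.4 CPM in macrophages and monocytes of control tumours (0.50, SE 0.12, adjusted p = 0.0017). For Bst2 every macrophage library lay above every monocyte library in both tumour groups. Bst2 also marks plasmacytoid dendritic cells. Of 8 markers of these cells 6 were tested, of which Bst2 was higher and 3 were lower in macrophages of anti-PD-L1 tumours, and Bst2 and Tcf4 were higher and 2 lower in macrophages of control tumours. The other 7 summed to 60.0 to 71.2 CPM in macrophages and 52.1 to 67.6 CPM in monocytes of anti-PD-L1 tumours, most of it Tcf4, and to 67.0 to 77.9 and 54.1 to 67.7 CPM in macrophages and monocytes of control tumours, with none at 0 in every library. Siglech, a receptor of these cells, was at most 0.108 CPM in macrophages and 1.36 CPM in monocytes. The part of such cells in the Bst2 level was not tested. Lgals3bp averaged 1014 ± 53.8 CPM in macrophages and 768 ± 67.9 CPM in monocytes of anti-PD-L1 tumours (0.40, SE 0.13, adjusted p = 0.016). These 3 calls held in all 20 fits that left out 1 library and in all 8 other alternatives, in both tumour groups. Parp9, Phf11b and Tor3a passed in neither direction in either tumour group, and with the replicate block Phf11b was lower in macrophages of anti-PD-L1 tumours (-0.30, adjusted p = 0.0099). With the block 7 further members were lower in macrophages of control tumours, Adar, Eif2ak2, Epsti1, Herc6, Ifih1, Ifit3 and Rtp4 (adjusted p = 0.0033 to 0.031), all of which were also lower in anti-PD-L1 tumours.

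**Figure D5:**
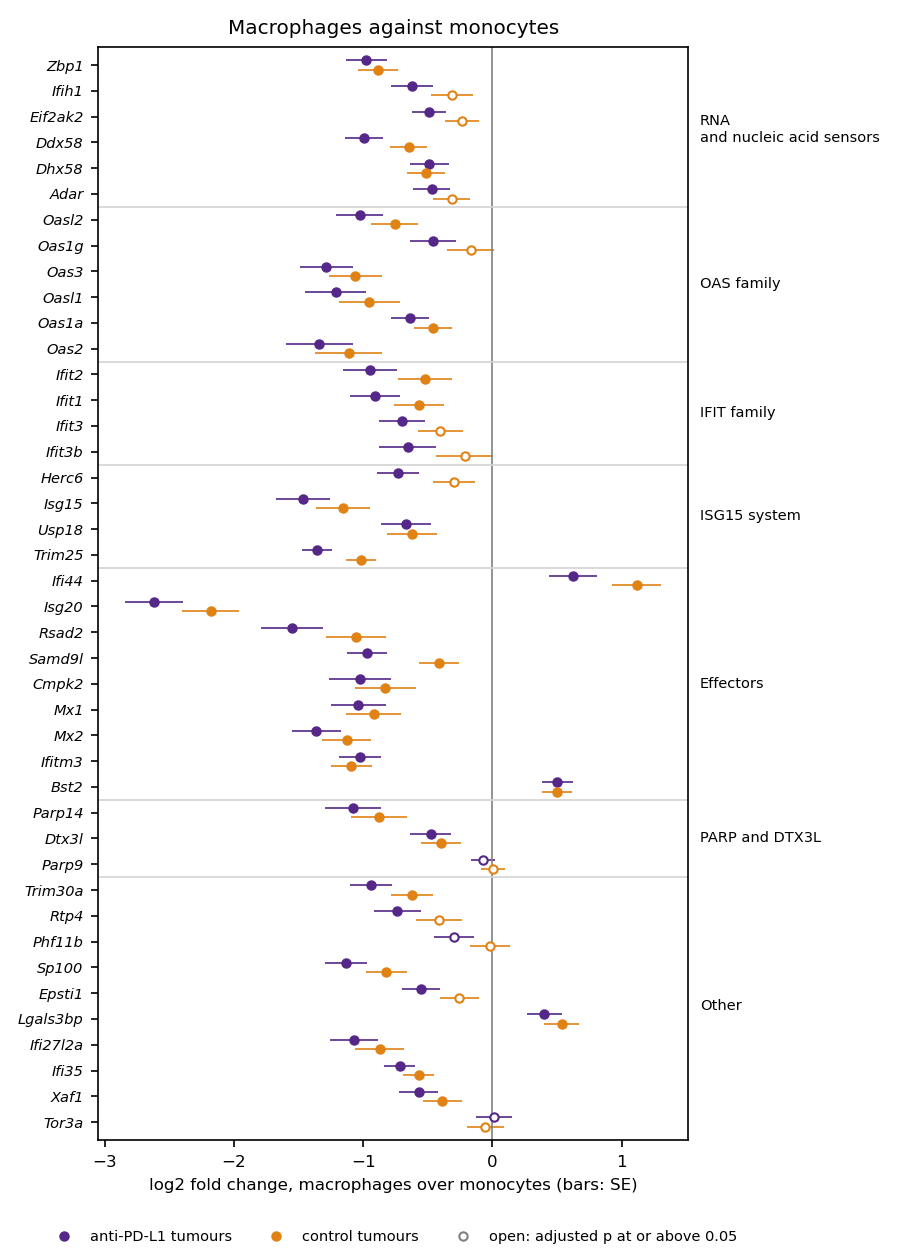
Log2 fold change of macrophages over monocytes (x axis, bars for SE) for each gene by role, in anti-PD-L1 tumours (purple) and control tumours (orange), with filled points for an adjusted p under 0.05. Isg20 lies lowest at -2.62 and -2.18, and Ifi44, Bst2 and Lgals3bp are the filled points above 0.

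Per unit of transcript length, the members differed in level by over 2 orders of magnitude. On the deposited nRPKM scale, the mean over all 20 libraries ran from 10.2 for Ifit3b to 1409 for Ifitm3. Ifitm3 was at 1056 ± 153 nRPKM in anti-PD-L1 macrophages, 748 ± 144 in control macrophages, 2183 ± 131 in anti-PD-L1 monocytes and 1648 ± 415 in control monocytes (SD, n = 5 each). Next came Ifi27l2a (492 nRPKM), Bst2 (471), Isg15 (461) and Lgals3bp (345), then Zbp1 (221) and Oasl2 (136). Bst2, Ifi27l2a and Isg15 were close in overall mean but not in pattern. Bst2 was at 618 ± 71.2 nRPKM in anti-PD-L1 macrophages, 477 ± 88.0 in control macrophages, 444 ± 55.5 in anti-PD-L1 monocytes and 346 ± 29.5 in control monocytes. Isg15 was at 299 ± 66.9, 213 ± 43.0, 839 ± 146 and 491 ± 186 nRPKM in the same groups. Macrophages thus held more Bst2 than Isg15, and monocytes more Isg15 than Bst2. The lowest levels beside Ifit3b were those of Mx2 (11.1 nRPKM), Oas1g (18.6) and Ifi44 (21.1). Anti-PD-L1 monocytes had the highest mean CPM of the 4 groups for 38 members, and anti-PD-L1 macrophages for Bst2, Ifi44, Lgals3bp and Tor3a. Control macrophages had the lowest mean for 38 members and control monocytes for the other 4.

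Genes that encode the interferons themselves were scarcely detected. Of 18 type I interferon genes 8 were at 0 in all 20 libraries, and Ifnb1, interferon-beta, was the 1 gene with enough reads to be tested. Ifnb1 was at 1.62, 4.43, 1.71, 1.14 and 4.13 CPM in anti-PD-L1 macrophages, against 3.33, 1.37, 3.28, 1.79 and 1.29 CPM in control macrophages (0.24, SE 0.52, adjusted p = 0.83). It was at 0.712, 0.244, 2.40, 0.489 and 1.44 CPM in anti-PD-L1 monocytes, against 1.13, 0.439, 0.25, 0.718 and 0.468 CPM in control monocytes (0.82, SE 0.55, adjusted p = 0.29). The values were low and overlapped under treatment. Between cell types Ifnb1 was higher in macrophages, by 1.29 in anti-PD-L1 tumours (adjusted p = 0.048) and 1.87 in control tumours (adjusted p = 0.0094), opposite to the direction of most members.

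Over all genes tested, 9.92% rose in monocytes and 1.73% in macrophages. Of 7 genes for the receptor and its signalling, 5 rose in monocytes. The smallest adjusted p in macrophages was that of Tyk2 (0.44, adjusted p = 0.055 by edgeR's quasi-likelihood test), which did not pass. Irf7, a factor that amplifies interferon production, was at 924, 910, 663, 797 and 605 CPM in anti-PD-L1 macrophages, against 560.3, 431, 458, 722 and 368 CPM in control macrophages (0.62, SE 0.19, adjusted p = 0.059), and at 1208, 1639, 1524, 1480 and 1309 CPM in anti-PD-L1 monocytes, against 637, 758, 519, 752 and 1081 CPM in control monocytes (0.93, SE 0.19, adjusted p = 0.0048). The monocyte groups of Irf7 did not overlap. Irf9 had 0.24 in macrophages (adjusted p = 0.085) and rose by 0.35 in monocytes, Ifnar2, Jak1 and Tyk2 rose in monocytes by 0.31 to 0.39, and Stat2 (0.46, adjusted p = 0.097) and the receptor chain Ifnar1 (0.27, adjusted p = 0.07) did not pass there. Of 13 sensors and adaptors upstream of interferon, 9 rose in monocytes and 1, the kinase Ikbke, in macrophages (0.67). The smallest p in monocytes were those of Tlr3, a receptor for double-stranded RNA (0.67), the kinase Tbk1 (0.40) and Tlr8 (0.71). Of 6 feedback genes 5 rose in monocytes and 1 in macrophages, Socs1, an inhibitor of JAK kinases, with 0.99 in macrophages (adjusted p = 0.047) and 1.01 in monocytes (adjusted p = 0.013). Of 12 genes of the interferon-gamma arm 8 rose in monocytes and 2, Gbp5 and Irgm1, in macrophages, by 0.80 and 0.62, and by 1.05 and 0.94 in monocytes. The median of that list was 0.54 in macrophages and 0.78 in monocytes, against 0.36 and 0.61 for the 42 members, and the lists were not compared by a test. Of the 38 genes of these 4 lists 4 rose in macrophages and 27 in monocytes, where 1.73% and 9.92% of all genes rose. With the fibroblast covariate 0 passed in either, where 0.0065% of all genes rose in macrophages and 0.0325% in monocytes. Without the 6 control libraries only Tlr8 passed, in both, where 0.413% and 0.433% of all genes rose. With DESeq2 15 rose in macrophages and 27 in monocytes, where it called 3.74% and 8.21% of all genes higher.

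The medians of members with and without the promoter motif shown above were close, as a description with no test. In macrophages the median log2 fold change of anti-PD-L1 over control was 0.36 for the 15 members with the motif and 0.33 for the 16 without it. In monocytes it was 0.63 and 0.60, and 12 of 15 and 15 of 16 rose. Ifi44 and Herc6, the largest rises in monocytes, had no match in the window, and Oas1g and Isg15, both with overlapping matches, rose by 0.81 and 0.78. An exact search misses close variants within the window, and letters missing from a window say nothing of what binds elsewhere.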

How the data were processed

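Sorted macrophages and monocytes from MC38 tumours were profiled by RNA-seq in 20 libraries, 5 per group. Total RNA went into a stranded library kit, per the labels' protocols, while the molecule label says polyA. The submitters' processing notes name GSNAP and GRCm38. Which annotation, counter and strand setting were used, and the version of GSNAP, is not given in the sources used here. Every file holds, per the file headers, a count of uniquely aligned reads per gene model and an nRPKM value. The deposited nRPKM (RPKM) values were checked to be the counts times a constant per gene and library, and were used only to compare levels between genes. Unique alignment drops or splits reads of near-identical genes, so the Oas1, Ifit3 and Phf11 genes are uncertain. RefSeq symbols matched 31049 of 36528 models (85.0%), with 97.97% of counts.

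The members and lists were chosen with earlier results of these data known. One gene of the receptor and signalling list is not reported here. The deposited counts were fitted in R 4.3.3 with edgeR 4.0.16 (filterByExpr, TMM, quasi-likelihood F-test, one mean per group over all 20 libraries). P-values were adjusted by Benjamini-Hochberg over 15390 genes, with a threshold of 0.05. Log2 CPM used a prior count of 2. Standard errors are the fold change over the square root of F. Alternatives were DESeq2 1.42.0, limma-voom (limma 3.58.1) with and without a replicate block, RLE factors, no filter, only the groups compared, a fibroblast covariate, and leaving out libraries. The fit was tested on simulated data. Of simulated 1.5-fold rises it recovered 40.3% in macrophages and 47.8% in monocytes, and of 2-fold rises 89.6% and 82.1%. The simulation drew libraries independently, gave all groups the same means otherwise, and changed 67 genes at each of these folds. Paired libraries and changes in many genes were not simulated, nor were rises under 1.5-fold, so the shares need not hold here.

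Replicates were numbered in deposit order, which only names them. Neighbouring sample numbers each join 1 macrophage and 1 monocyte library. In all 10 pairs their deviations from the group means correlated, by 0.22 to 0.72 across genes. In 9 of the 10 the macrophage library correlated best with its own neighbour among monocyte libraries of the same treatment. Control macrophage replicate 2 did not. These numbers were taken to pair the samples. This pairing comes from the data, as the labels do not state it. Library values are given for the 2 members per role with the smallest monocyte p, those called in macrophages, the 2 called members with the smallest p per side between cell types, and the highest and lowest in nRPKM. Lgals3bp, Isg15, Usp18 and others given by means or fold changes complete the 42.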

Additional observations from a re-analysis of the deposited data

Results flagged for a closer look

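Among 76 groups of 5 libraries examined, those of the members with library values and of the mean level, 4 held a library far from its other 4, and chance alone marks about 1 in 20 groups. Anti-PD-L1 monocyte replicate 5 stood low for Eif2ak2, with a log2 CPM of 7.04 where its group otherwise ran from 7.40 to 7.54. The same library stood low for Ifit3b, at 4.24 against 5.01 to 5.23. Anti-PD-L1 monocyte replicate 2 stood high for Ifi35, at 7.62 against 7.34 to 7.40. Anti-PD-L1 macrophage replicate 3 stood low for Trim25, at 7.58 against 7.82 to 7.86.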

How the results depend on the processing

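No called result changed direction under any alternative run. The number of members higher in anti-PD-L1 than in control macrophages, 3 as reported, was 12 with DESeq2, 5 with only the 2 groups compared and 1 with no filter on low counts. Of all genes 3.74%, 2.78% and 0.681% were higher in these fits, against 1.73% as reported. The number of members was 0 with limma-voom, with the fibroblast marker level as covariate and after dropping the 6 control libraries richest in fibroblast markers. Of all genes 0.962%, 0.0065% and 0.413% were higher there. Over the 20 fits that left out 1 library the number of members ran from 0 to 18, and the share of all genes from 0.0705% to 5.34%. In monocytes, 34 as reported, the count was 1 with the covariate and 1 without the 6 control libraries, and 23 to 40 over the 20 fits. Of all genes 9.92% rose as reported, 0.0325% and 0.433% in those 2 settings, and 4.47% to 13.3% over the 20 fits. With the replicate block 3 members were higher in macrophages and 35 in monocytes, where 1.27% and 10.4% of all genes were. Over the 20 fits the number lower in macrophages than in monocytes ran from 32 to 36 in anti-PD-L1 tumours and from 20 to 31 in control tumours, and the number higher was 3 in each. The block changed no other call than those given with the results.

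Leaving out the 6 control libraries leaves 2 controls per cell type, so lost calls there also reflect fewer samples. The fibroblast marker level moved with treatment, so calls lost under the covariate also reflect a less certain estimate. Depth was ample for the members, but not for the type I interferon genes, where 3 counts correspond to 0.0994 CPM in the shallowest library. Such floors cover counting error only.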
